A study of Mus musculus with 2 samples.

Results

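The genes described here are 52 components of the Wnt pathway, a list of ligands, receptors, secreted and intracellular inhibitors and nuclear effectors, out of 21911 protein-coding genes of GENCODE M21. They were taken by name, and their binding by EP300 was read in stomach of newborn mice (B6NCrl, age 0 day). EP300 is a histone acetyltransferase that transcription factors recruit to active enhancers and promoters. Its sites were mapped by chromatin immunoprecipitation and sequencing in 2 libraries that form 1 group, with no other tissue, stage or treatment. They are labelled biological replicate 1 and 2 and share a biosample and a donor label. Sex was not collected. The spread between them may therefore be technical. The deposited files are peak lists, so read depth is unknown.

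Wnt proteins are secreted lipid-modified ligands that bind Frizzled receptors together with the co-receptors Lrp5 and Lrp6. Binding stops the scaffold of Axin, Apc and kinases from marking beta-catenin for destruction, and beta-catenin then joins TCF/LEF factors on DNA and brings co-activators, EP300 among them, to target genes. Several targets are inhibitors of the pathway itself, such as Axin2, Nkd1, Znrf3 and Rnf43, which closes a feedback loop. In the developing stomach, Wnt signalling takes part in the patterning of the forestomach and glandular regions and in the renewal of gastric epithelium.

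Each gene was linked to summits of the optimal set, a deposited set derived from both libraries and cut at a reproducibility threshold. A summit is the point of highest signal in a peak. Of the 7733 optimal summits on named chromosomes, 6865 had a peak summit of both libraries inside their peak. A place in the optimal set therefore does not mean that each library had a peak summit there. A library peak that overlapped with its summit outside was not counted. Links were made in 3 ways: a summit within 50 kb of the gene start, a summit inside the gene body, or a gene start that is the nearest protein-coding start to a summit. By any of these, 25 of the 52 genes had a summit (48.1%), beside 38.5% of all protein-coding genes. The linked summits numbered 48, in 35 regions of overlapping peaks.

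The sequences below lie at summits on which the description turns. The first 4 surround summits that hold a TCF/LEF consensus within 100 bp, CTTTGAT or CTTTGAA on either strand, and the consensus is in capitals (it reads ATCAAAG where it lies on the minus strand).
Rnf43, intron, chr11:87689538-87689738, mm10, plus strand: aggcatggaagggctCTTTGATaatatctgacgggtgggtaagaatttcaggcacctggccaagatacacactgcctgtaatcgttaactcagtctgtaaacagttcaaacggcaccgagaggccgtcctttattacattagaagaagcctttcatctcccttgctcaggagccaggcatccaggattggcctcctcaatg
Znrf3, intron, stronger summit, chr11:5411620-5411820, mm10, plus strand: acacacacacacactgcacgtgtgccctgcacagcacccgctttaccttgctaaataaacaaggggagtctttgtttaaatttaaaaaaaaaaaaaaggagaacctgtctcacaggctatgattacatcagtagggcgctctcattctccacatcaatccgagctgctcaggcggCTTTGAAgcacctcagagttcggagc
Znrf3, intron, second summit, chr11:5427228-5427428, mm10, plus strand: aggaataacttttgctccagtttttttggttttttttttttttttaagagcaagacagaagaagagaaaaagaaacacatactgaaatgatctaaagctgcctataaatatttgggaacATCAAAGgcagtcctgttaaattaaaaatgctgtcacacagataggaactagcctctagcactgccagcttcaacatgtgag
Lrp6, upstream of the start, chr6:134567314-134567514, mm10, plus strand: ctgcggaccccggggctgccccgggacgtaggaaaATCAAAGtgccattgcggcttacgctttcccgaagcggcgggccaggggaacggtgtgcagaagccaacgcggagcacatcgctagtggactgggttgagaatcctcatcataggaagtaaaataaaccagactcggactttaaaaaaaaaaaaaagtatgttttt

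The Axin2 summits hold the same consensus at 2 places near the gene start, in a UTR exon and in the first intron, and only the sites with their flanks are shown.
Axin2, UTR exon, chr11:108920417-108920443, mm10, plus strand: gccggctgcgCTTTGATaaggtcctgg
Axin2, intron, chr11:108920780-108920806, mm10, plus strand: cggctcgcgcCTTTGAAgtgcacagtt

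The next 4 are the strongest summits away from promoters of the ligands, the TCF/LEF factors, beta-catenin and the feedback inhibitors. None holds the TCF/LEF consensus within 100 bp. Capitals mark an 8-letter palindrome in the Wnt10a sequence, the E-box CAGCTG in the Tcf7l1 and Nkd1 sequences, and CACACCC, the minus-strand form of a KLF and SP consensus, in the Ctnnb1 sequence.
Wnt10a, downstream, chr1:74816874-74817074, mm10, plus strand: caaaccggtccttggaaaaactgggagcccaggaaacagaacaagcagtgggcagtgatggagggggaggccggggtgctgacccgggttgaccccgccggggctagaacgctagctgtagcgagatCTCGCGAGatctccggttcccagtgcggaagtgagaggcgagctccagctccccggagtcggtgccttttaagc
Tcf7l1, intron, chr6:72655414-72655614, mm10, plus strand: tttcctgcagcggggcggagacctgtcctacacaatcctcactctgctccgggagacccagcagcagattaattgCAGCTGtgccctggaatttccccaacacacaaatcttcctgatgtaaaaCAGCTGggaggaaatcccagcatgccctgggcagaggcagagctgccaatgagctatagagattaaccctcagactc
Ctnnb1, upstream, chr9:120919099-120919299, mm10, plus strand: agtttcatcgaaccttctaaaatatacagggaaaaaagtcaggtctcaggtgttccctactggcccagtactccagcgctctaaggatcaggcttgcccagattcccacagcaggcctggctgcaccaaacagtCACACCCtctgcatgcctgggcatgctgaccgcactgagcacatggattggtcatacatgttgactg
Nkd1, intron, chr8:88555635-88555835, mm10, plus strand: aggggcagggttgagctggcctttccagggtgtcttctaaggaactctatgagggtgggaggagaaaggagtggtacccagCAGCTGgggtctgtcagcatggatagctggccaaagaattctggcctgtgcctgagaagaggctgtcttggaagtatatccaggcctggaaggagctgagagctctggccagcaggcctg

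Of the 5 genes for intracellular and membrane feedback inhibitors, Axin2, Nkd1, Znrf3 and Rnf43 were each linked in all 3 ways, and Nkd2 in none. The role leaves out secreted inhibitors that the pathway can also induce, such as Notum and Dkk1, which had no optimal summit. With genes of all types as possible nearest starts, Nkd1 and Rnf43 were the nearest start to 0 summits, so that link was lost for both. Over all 52 genes, 6 were linked in all 3 ways (11.5%), beside 8.88% of all genes; the other two were Fzd1 and Rspo3. The 4 feedback genes held 11 summits in 7 regions, and 8 of the 11 lay more than 10 kb from any coding transcript start.

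Axin2, which scaffolds the destruction of beta-catenin and is a widely used readout of the pathway, carried its strongest peak at its own start. That summit lay 111 bp downstream of the GENCODE start in a UTR exon (chr11:108920180-108920739), with a signal of 53.3 in the pooled list, 26.8 in replicate 1 and 25.8 in replicate 2. Signal is the peak caller's own measure of peak strength, and each list has its own scale; the pooled list was made from both libraries together. The peak ranked 1164 in the replicate 1 list and 1131 in the replicate 2 list, each of 300000 peaks, so both libraries placed it at nearly the same height. An overlapping peak had its summit at 367 bp in intron 1, with 32.5 in the pooled list. The consensus sites printed above lie 81 bp and 444 bp downstream of the start. RefSeq places the start of Axin2 2521 bp further upstream, and by that annotation neither summit is at the outermost start. A further summit 60.3 kb downstream of the start was nearest to Axin2 among coding genes, with 33.3 pooled, 24.8 in replicate 1 and 9.39 in replicate 2. It lay 71 bp from the start of the RefSeq long non-coding RNA gene Gm36876.

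Rnf43 and Znrf3 encode membrane E3 ubiquitin ligases that remove Frizzled receptors from the cell surface. Their peaks were all intronic. Rnf43 had its strongest peak in intron 2 of 9, 26.9 kb downstream of the start (chr11:87689358-87689917), with 44.6 in the pooled list, 27.5 in replicate 1 and 18.1 in replicate 2. An overlapping peak reached 11.1. Znrf3 had 3 summits in intron 1 of 8. The strongest lay 33.1 kb from the start, with 36.6 pooled, 16.3 in replicate 1 and 15.6 in replicate 2. Its ranks in the replicate lists, 5253 and 5013, were close. The other Znrf3 peaks, at 17.5 kb and 17.3 kb, had 26.7 and 17.6 in the pooled list and 17.7 in replicate 1, and no peak summit of replicate 2 fell inside them. They overlap and form 1 region.

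Nkd1 encodes an intracellular antagonist that binds Dishevelled. All 3 of its summits lay in intron 3 of 9. The strongest, 34.4 kb from the start (chr8:88555455-88556014), had 47.1 pooled, 26.0 in replicate 1 and 18.8 in replicate 2. Its overlapping neighbour reached 10.6, and the third summit at 51.8 kb had 25.1 pooled, 13.7 in replicate 1 and 10.2 in replicate 2. The paralog Nkd2 had no optimal summit by any link. Its strongest pooled peak within 50 kb reached 20.4, under the lowest of the other 4 genes, Znrf3 at 36.6.

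Among the 17 ligand genes, 7 had a summit by any link, beside 38.5% of all genes. None of the 17 had one inside the gene, beside 12.1% of all genes. Wnt4, a ligand known for its roles in kidney and gonad development, had the most optimal summits of the ligands. It had 2 in the conservative set, where Wnt1 and Wnt16 had more, and 3 in replicate 1 alone, where Wnt7b had more. The 5 optimal summits of Wnt4 lay in 4 regions upstream, all intergenic, and Wnt4 was the nearest coding start to each. The farthest region, 112.3 kb upstream (chr4:137164925-137165484), had the strongest of them, with 54.2 pooled, 37.7 in replicate 1 and 21.7 in replicate 2. This summit lay 139 bp from the start of the RefSeq lncRNA gene Gm13003. The nearest region, 21.8 kb upstream, had 41.9 pooled, 18.6 in replicate 1 and 19.4 in replicate 2. The regions at 41.9 kb and 23.0 kb were weaker, with 25.5 and 22.9 in the pooled list. The libraries ordered this pair oppositely, with 9.003 and 16.2 in replicate 1 and 16.6 and 8.88 in replicate 2.

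Wnt10a and Wnt6, neighbours on chromosome 1, shared the strongest distal peak of all members (chr1:74816694-74817253). Its signal was 79.6 pooled, 41.4 in replicate 1 and 40.1 in replicate 2, ranks 336 and 342 in the replicate lists. The summit lay 25.5 kb downstream of the Wnt10a start and 45.1 kb downstream of the Wnt6 start, and Wnt10a was the nearest coding gene. RefSeq annotates a tRNA gene, n-TGgcc3, inside the peak, with its 5′ end 157 bp from the summit. A peak near this ligand gene is thus also a peak at the start of a tRNA gene. Both are given here as positions, and which gene the site acts on was not tested.

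Wnt1 and Wnt10b, neighbours on chromosome 15, shared the highest signal near any member, 213.7 pooled, 107.9 in replicate 1 and 106.5 in replicate 2 (chr15:98763121-98763404). This peak ranked 38 of the optimal set but its summit lay 49 bp from the start of Arf3, a gene outside the pathway, and 26.6 kb from Wnt1. The second Wnt1 summit, with 28.6, was 17 bp from the start of Prkag1. Neither gene was the nearest start to any summit, so their link rests on the window alone.

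Wnt7b, an epithelial ligand, had 2 upstream summits outside the 50 kb window, at 52.5 kb and 71.4 kb. The nearer had 46.3 pooled, 14.3 in replicate 1 and 27.4 in replicate 2, and the farther 30.8 pooled, 22.0 in replicate 1 and 12.9 in replicate 2. The libraries therefore differed in which was higher. The nearer summit lay 363 bp from the start of the RefSeq lncRNA gene D130051D11Rik. Wnt16 had a region 147.4 kb upstream, inside an intron of Cped1, with 29.4 pooled, 16.0 in replicate 1 and 11.4 in replicate 2. The other 10 ligand genes, Wnt2, Wnt2b, Wnt3, Wnt3a, Wnt5a, Wnt5b, Wnt7a, Wnt9a, Wnt9b and Wnt11, had no optimal summit by any link. Of these, Wnt5a and Wnt5b each had 1 summit in the conservative set, and they were linked in 3 and 4 of the 6 peak sets.

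Of the 12 genes for Frizzled receptors and co-receptors, 6 had a summit by any link, beside 38.5% of all genes. Of the 8 summits linked to these receptor genes, 6 lay within 1 kb of a coding transcript start, beside 38.2% of all optimal summits. Those 6 were at Fzd1, Fzd2, Fzd4 and Lrp6, and the overlapping peaks at Fzd1 and at Fzd2 were each counted. By region, the 8 summits lay in 6. Fzd1 and Lrp6 had 0 summits in the conservative set and in the stronger part of the optimal set, while Fzd2 and Fzd4 had some in both. Fzd2 had overlapping peaks with summits 254 bp and 52 bp upstream of its start. The stronger reached 44.0 pooled, with 14.1 in replicate 1 and 25.7 in replicate 2. Fzd1 had summits 42 bp downstream and 208 bp upstream of its start, the stronger with 28.1 pooled, 9.95 in replicate 1 and 12.3 in replicate 2. Fzd4, the receptor of Norrin as well as of Wnts, had a summit 435 bp upstream with 37.2 pooled, 28.0 in replicate 1 and 12.0 in replicate 2. That summit was nearer to the start of Tmem135, at 302 bp. By rank, the Fzd4 peak stood at 1001 in the replicate 1 list and 10642 in the replicate 2 list. The stronger Fzd2 peak stood at 8143 and 1141.

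Lrp6, a co-receptor that docks Axin at the membrane, had a summit 449 bp upstream with 23.6 pooled and 15.1 in replicate 2, and no peak summit of replicate 1 fell inside it. Fzd7 had a summit 26.2 kb downstream that was nearer to Gm973, with 30.0 pooled, 7.03 in replicate 1 and 16.5 in replicate 2. Fzd10 had a summit 74.2 kb upstream, with 31.9 pooled, 12.5 in replicate 1 and 13.9 in replicate 2. Fzd3, Fzd5, Fzd6, Fzd8, Fzd9 and Lrp5 had none. Within 1 kb of the gene start, 6 of the 52 members had an optimal summit (11.5%), beside 10.1% of all genes. They were Fzd1, Fzd2, Fzd4, Lrp6, Axin2 and Tcf7l2, so 4 of the 6 were receptor or co-receptor genes. This share is near that of all genes.

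R-spondins are secreted proteins that bind Lgr receptors and protect Frizzled receptors from Rnf43 and Znrf3. Rspo3 had overlapping peaks in intron 4 of 4, 49.6 kb from the start, with 25.3 pooled, 6.89 in replicate 1 and 12.8 in replicate 2 for the stronger. Rspo1 had a summit 49.5 kb upstream with 34.0 pooled, 21.8 in replicate 1 and 15.8 in replicate 2, 97 bp from the start of 9930104L06Rik. Lgr4 had one 27.4 kb upstream with 13.6 pooled and 8.42 in replicate 1, with no peak summit of replicate 2, 630 bp from the start of Lin7c. Of the 3, Rspo3 alone was linked by gene body or nearest start, but it had 0 summits in the conservative set and in either library alone. Rspo1 was linked in 6 of 6 peak sets, and Rspo3 and Lgr4 in 2 each. Rspo2 and Lgr5, a marker of stem cells in the gastric glands, had no optimal summit.

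The secreted inhibitors had no summit within 50 kb of the start or in the gene body for any of the 7 genes. The shares of all genes for these links were 34.9% and 12.1%. Sfrp1 and Sfrp2 encode decoy proteins that bind Wnts, and were linked as the nearest start to distal summits. Sfrp1 had one 63.3 kb upstream, with 30.2 pooled, 13.0 in replicate 1 and 13.5 in replicate 2. It had a further region 55.1 kb downstream of the start, with 24.4 pooled, 12.3 in replicate 1 and 12.2 in replicate 2. Ranks in the replicate 1 and 2 lists were 10156 and 7574 for the upstream summit, and 12041 and 10298 for the downstream region. The Sfrp2 region lay 156.1 kb upstream, with 36.5 pooled, 16.7 in replicate 1 and 21.8 in replicate 2. Dkk1 and Dkk2 encode antagonists of Lrp co-receptors, and Notum an enzyme that removes the lipid of Wnts. Like Dkk3 and Sfrp5, these genes had no link in the optimal set. Notum had 1 summit in the conservative set and 1 in replicate 2 alone.

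Ctnnb1 encodes beta-catenin and was the nearest start to 4 summits in 3 regions, none inside the gene. The strongest lay 10017 bp upstream (chr9:120918919-120919478), with 50.1 pooled, 20.6 in replicate 1 and 26.3 in replicate 2. A region 33.2 kb downstream of the start, in an intron of the neighbour Ulk4, had 22.2 pooled, 6.05 in replicate 1 and 17.4 in replicate 2. The third, 152.4 kb upstream, had 32.5 pooled, 19.3 in replicate 1 and 11.1 in replicate 2. Axin1, the constitutive scaffold, had no link, and its strongest pooled peak within 50 kb was 15.4.

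Of the 4 TCF/LEF genes, Tcf7l1 and Tcf7l2 had summits. Tcf7l1, whose product mostly acts as a repressor of Wnt targets, had 2 in intron 3 of 12. The stronger lay 133.7 kb from the start (chr6:72655234-72655793) with 58.3 pooled, 33.7 in replicate 1 and 26.0 in replicate 2, and the other had 23.9 pooled, 16.3 in replicate 1 and 17.97 in replicate 2. The nearest coding start to both was Tgoln1, at 38.5 kb and 60.6 kb. The stronger summit was also 259 bp from the start of the RefSeq lncRNA gene Gm31391. Tcf7l2 had a summit 680 bp upstream with 17.9 pooled, 17.2 in replicate 1 and 12.2 in replicate 2. Lef1 and Tcf7 had none.

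**Figure D1:**
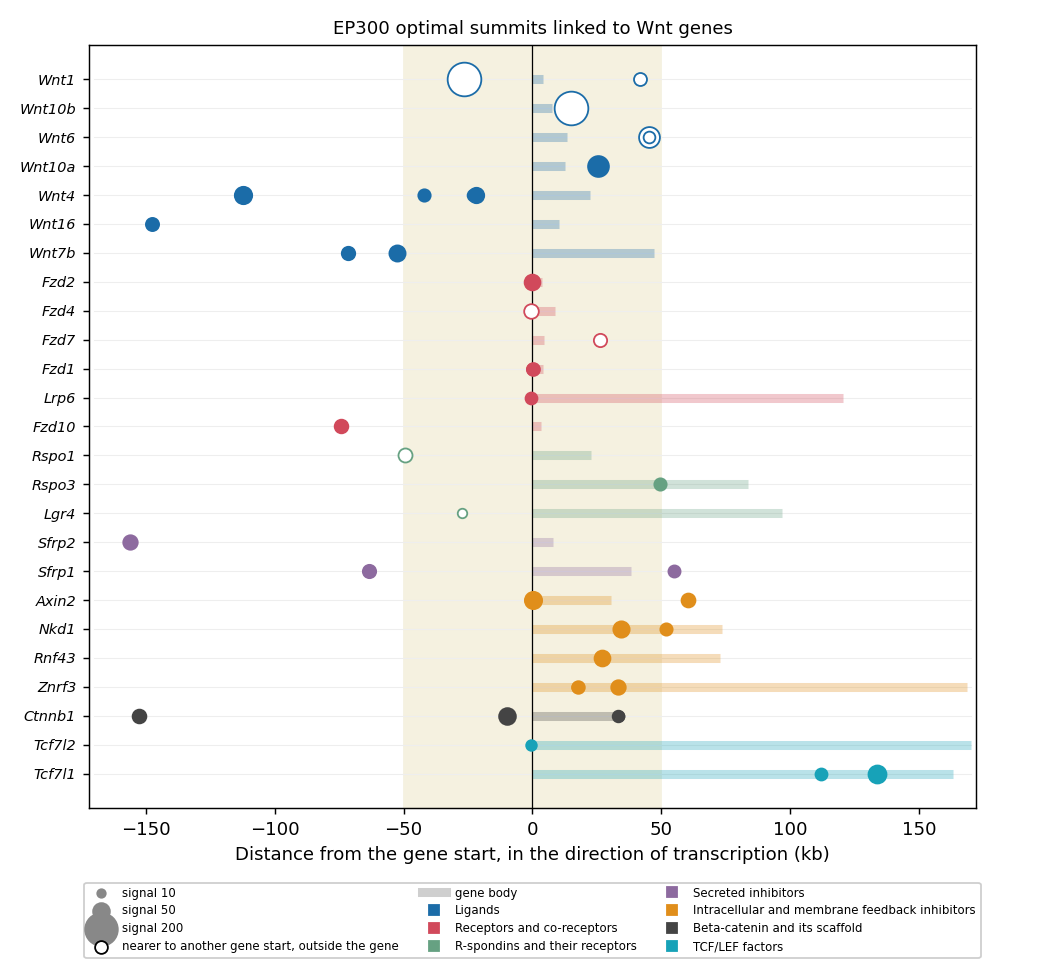
Optimal summits linked to the 25 genes, by distance from the gene start in kb in the direction of transcription (horizontal) and gene (vertical). Circle area grows with pooled signal, bars are gene bodies, the shaded band is 50 kb to either side, and open circles are summits outside the gene that are nearer to another coding start. Wnt4 summits all lie upstream, those of Nkd1, Rnf43 and Znrf3 inside the gene, and those of Fzd1, Fzd2, Fzd4 and Lrp6 at the start.

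The counts over the whole list were close to the background in the window and the gene body, and above it for the nearest start. Within 50 kb, 19 of 52 genes had a summit (36.5%), beside 34.9% of all protein-coding genes. In the gene body it was 7 of 52 (13.5%), beside 12.1%. As the nearest start it was 17 of 52 (32.7%), beside 19.4%. By role, the genes within 50 kb numbered 4 of 5 feedback inhibitors, 3 of 5 R-spondin and Lgr genes, 5 of 12 receptors, 5 of 17 ligands, 1 of 2 for beta-catenin and Axin1, 1 of 4 TCF/LEF genes and 0 of 7 secreted inhibitors. The list was chosen by role with earlier results known, and these shares carry no test.

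The stretch of chromosome in which a gene's start is the nearest coding start had a median of 120.8 kb for the 52 genes and 47.8 kb for all genes. It was 154.5 kb for the 17 genes nearest to a summit and 94.3 kb for the other 35. Among genes whose stretch exceeds the median of all genes, 15 of 40 members (37.5%) were nearest to a summit, beside 24.3% of all genes there. Among the rest it was 2 of 12 (16.7%), beside 14.4%. Per Mb of such stretch, the members held 4.32 summits and all genes 2.84. This rate counts each of several overlapping peaks, and no rate by region was computed. The 42 member summits in the gene body or nearest to the start lay in 29 regions, and all 7733 in 6079. The part of these stretches in the nearest-start count was not tested.

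**Figure D2:**
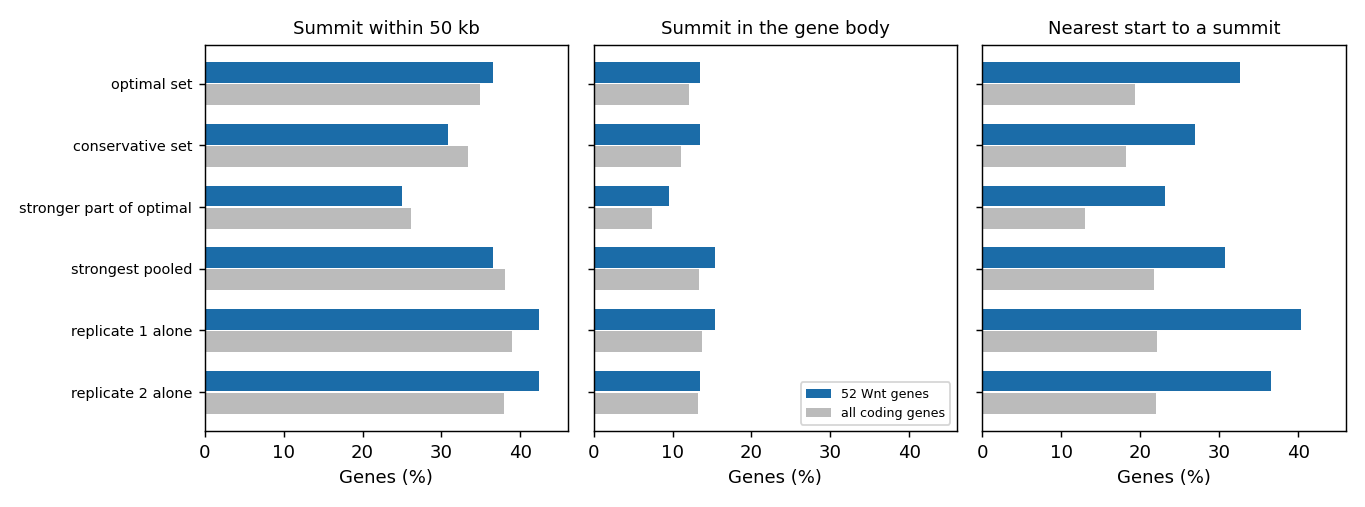
Percent of the 52 Wnt genes (blue) and of all protein-coding genes (grey) linked to a summit, by the 50 kb window, the gene body and the nearest start, for the optimal set and 5 other peak sets. Wnt genes stand above all genes in every set for the nearest start (32.7% and 19.4% in the optimal set), and close to them for the other links.

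The nearest-start difference was present in each peak set tried, with 14 genes (26.9%) in the conservative set beside 18.2% of all genes, and 12 (23.1%) in the stronger part of the optimal set beside 13.0%. Among the strongest pooled peaks it was 16 (30.8%) beside 21.7%, in replicate 1 alone 21 (40.4%) beside 22.1%, and in replicate 2 alone 19 (36.5%) beside 22.0%. The conservative set, of 6974 peaks, is not a mere part of the optimal set, with which it shares 4739. The genes themselves were partly different. Linked in all 6 peak sets were 17 genes, namely Wnt1, Wnt4, Wnt6, Wnt7b, Wnt10a, Wnt10b, Fzd2, Fzd4, Fzd10, Axin2, Tcf7l1, Ctnnb1, Sfrp2, Rspo1, Nkd1, Znrf3 and Rnf43. In the strongest peaks of the replicate lists, 23 genes were linked in both libraries and 13 in 1 alone. Linked in no set were 14 genes, among them Wnt3, Wnt3a, Lrp5, Axin1, Tcf7 and Dkk1. The counts of 17, 23, 13 and 14 genes have no share of all genes beside them, and nothing is read from their size. With genes of all types as possible nearest starts, the members nearest to a summit numbered 9 (17.3%), beside 13.6% of all genes.

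The summits linked to Wnt genes were of ordinary strength for this data set. Their median signal was 29.0 (quartiles 22.6 and 36.7), beside 30.2 (quartiles 23.7 and 39.7) for all 7733 optimal summits on named chromosomes. Of the 48, 29 were also in the conservative set (60.4%), beside 61.3% of all. Their positions differed more: 31 were distal, more than 10 kb from any coding transcript start (64.6%), beside 44.7% of all, and 13 lay within 1 kb of one (27.1%), beside 38.2%. All 31 were linked by gene body or nearest start, and 0 of the 6 linked by the window alone were distal. The nearest-start link has no distance limit, and these genes have wider stretches (median 120.8 kb, beside 47.8 kb). The part of both in the distal share was not tested. Of the 31 distal summits, 5 lay within 500 bp of the start of a RefSeq lncRNA gene (16.1%), beside 4.05% of all distal summits. They belong to Wnt4, where the peaks overlap at the same lncRNA gene, and to Wnt7b, Axin2 and Tcf7l1. The lncRNA starts were added after values were seen.

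In 43 of the 48 peaks both libraries had a peak summit, and in 5 only 1 library did. Replicate 1 had the higher signal in 24 of the 43 (55.8%), beside 51.1% of all optimal peaks with both. Each list has its own scale, so this count does not compare like units. Across the 43 peaks the log2 signals of the libraries had a Pearson correlation of 0.61 and a Spearman correlation of 0.45. Over all optimal peaks the correlations were 0.52 and 0.37. Among the 42 summits in the gene body or nearest to the start, which leave out the Arf3 promoter peak, they were 0.50 and 0.49. Overlapping peaks can share a replicate peak, so the points are not independent. Of the 48 summits, 7 ranked below the strongest 20000 peaks of the pooled list (14.6%), beside 13.8% of all.

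**Figure D3:**
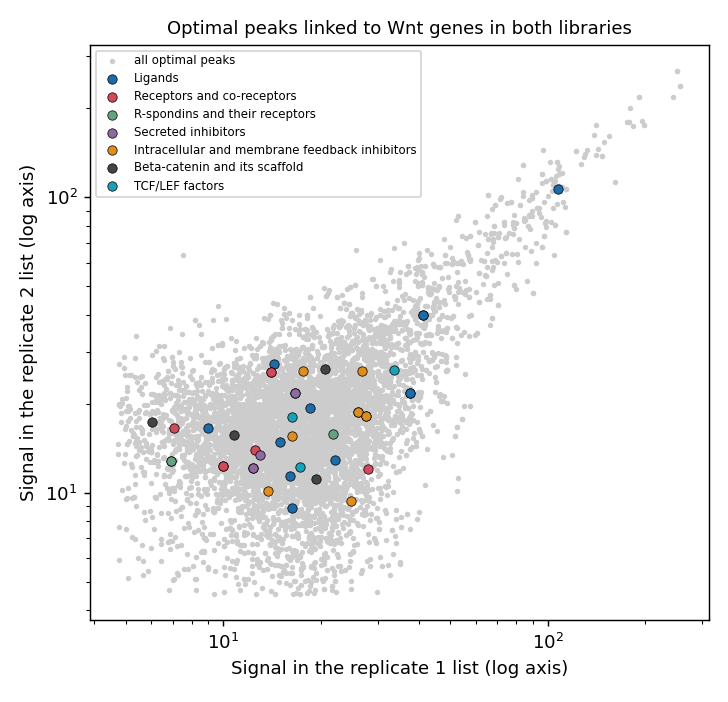
Signal of each optimal peak in the replicate 1 list (horizontal, log axis) and the replicate 2 list (vertical, log axis), where both have a peak summit in it. Grey points are all optimal peaks and coloured points the 43 linked to Wnt genes, by role; most coloured points lie inside the broad cloud, and the Arf3 promoter peak near Wnt1 stands highest at 107.9 and 106.5.

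The TCF/LEF consensus stood at 6 of the 48 summits (12.5%), beside 588 of 7733 (7.60%). By region it was 5 of 35, beside 575 of 6079 (9.46%). The feedback genes held 5 of these 6 summits, 2 each at Axin2 and Znrf3 and 1 at Rnf43, and Lrp6 the other. None of the Nkd1 summits held it, nor any at the ligands, R-spondin and Lgr genes, secreted inhibitors, beta-catenin or TCF/LEF genes. Within 50 bp of the summit 2 of the 48 held it (4.17%), beside 3.74% of all, and within 250 bp 10 did (20.8%), beside 16.9%. With CTTTGAT alone there were 4 (8.33%), beside 2.87%, and with the looser CTTTGNNG there were 7 (14.6%), beside 12.5%. A match of these letters is a description of the sequence and does not show that a factor binds there.

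Other motifs were spread over the roles. GGGCGGG or GGGTGTG, a KLF and SP consensus, stood at 7 of the 48 summits (14.6%), beside 19.2% of all, and the TEAD consensus GGAATG at 5 (10.4%), beside 14.2%. The E-box CAGCTG was at 6 (12.5%), beside 12.5% of all, and all 3 Nkd1 summits held it. The AP-1 consensus TGANTCA was at 5 (10.4%), beside 12.7%, and the GATA consensus AGATAA at 5 (10.4%), beside 8.11%. AACNGGTT, a GRHL consensus that includes AACCGGTT, was at 4 (8.33%), beside 4.85%, at Wnt4, Fzd1, Fzd10 and Tcf7l1. TGTTTAC, a forkhead consensus, stood at the printed Rnf43 summit alone (2.08%), beside 4.81% of all summits. SOX (CATTGT) stood at 2 of the summits (4.17%), beside 7.54%, ETS (CCGGAAG) at 1 (2.08%), beside 6.00%, and the homeobox letters TAATTA at 3 (6.25%), beside 3.81%. CRE (TGACGTCA) and NFI were at 0 of 48, beside 0.815% and 0.0517% of all summits. All were searched on both strands within 100 bp, and motifs can overlap each other.

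**Figure D4:**
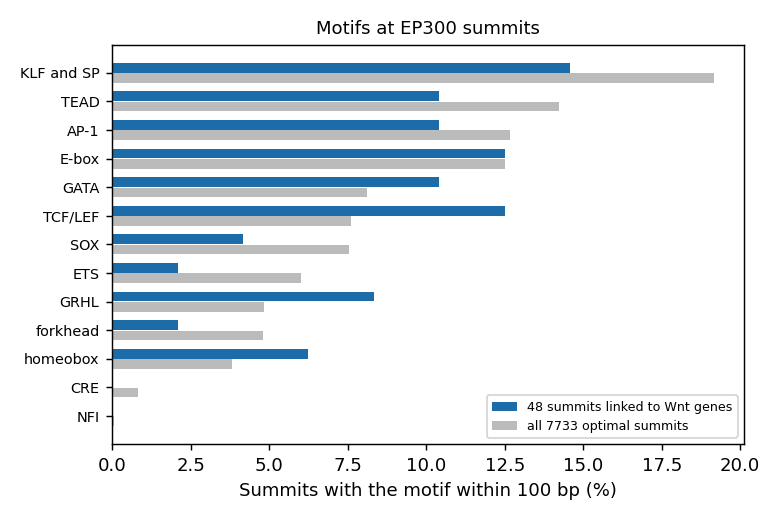
Percent of the 48 summits linked to Wnt genes (blue) and of all 7733 optimal summits (grey) that hold each motif within 100 bp on either strand. The TCF/LEF bars are 12.5% and 7.60%, and the KLF and SP bars 14.6% and 19.2%.

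The 27 genes without a link still had peaks in the pooled list, which holds 300000 peaks and reaches far into weak ones. The strongest pooled peak within 50 kb had a median signal of 21.8 over the 52 genes (quartiles 16.5 and 31.0), beside 19.0 over all genes (quartiles 13.0 and 32.3). Over the 27 it was 16.5, from 9.59 to 28.4. By role the medians were 44.6 for the feedback inhibitors, 32.8 for beta-catenin and Axin1, 22.8 for receptors, 22.3 for ligands, 22.2 for TCF/LEF factors, 20.6 for R-spondin and Lgr genes and 17.99 for secreted inhibitors.

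The highest of the unlinked genes was Fzd6, with a pooled peak of 28.4 at 89 bp upstream of its start, 10.1 in replicate 1 and 11.9 in replicate 2. It was a promoter peak that the optimal set left out. Wnt9a followed with 25.9 and 20.1 in replicate 2, with no peak summit of replicate 1. Wnt5a, a ligand of mesenchyme that acts largely without beta-catenin, had 23.1 in an intron 1622 bp from its start, with 9.41 in replicate 1 and 10.6 in replicate 2. Wnt2b had 22.3 (18.1 in replicate 1 and 14.9 in replicate 2), Tcf7 22.2 (11.05 and 11.1) and Wnt11 22.2 (none and 20.6). Lrp5, at 9.59, Sfrp5, at 10.03, Wnt2, at 11.5, and Dkk1, at 11.8, were the lowest. Wnt3 and Wnt9b, adjacent genes, shared a peak of 12.1 inside Wnt9b.

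**Figure D5:**
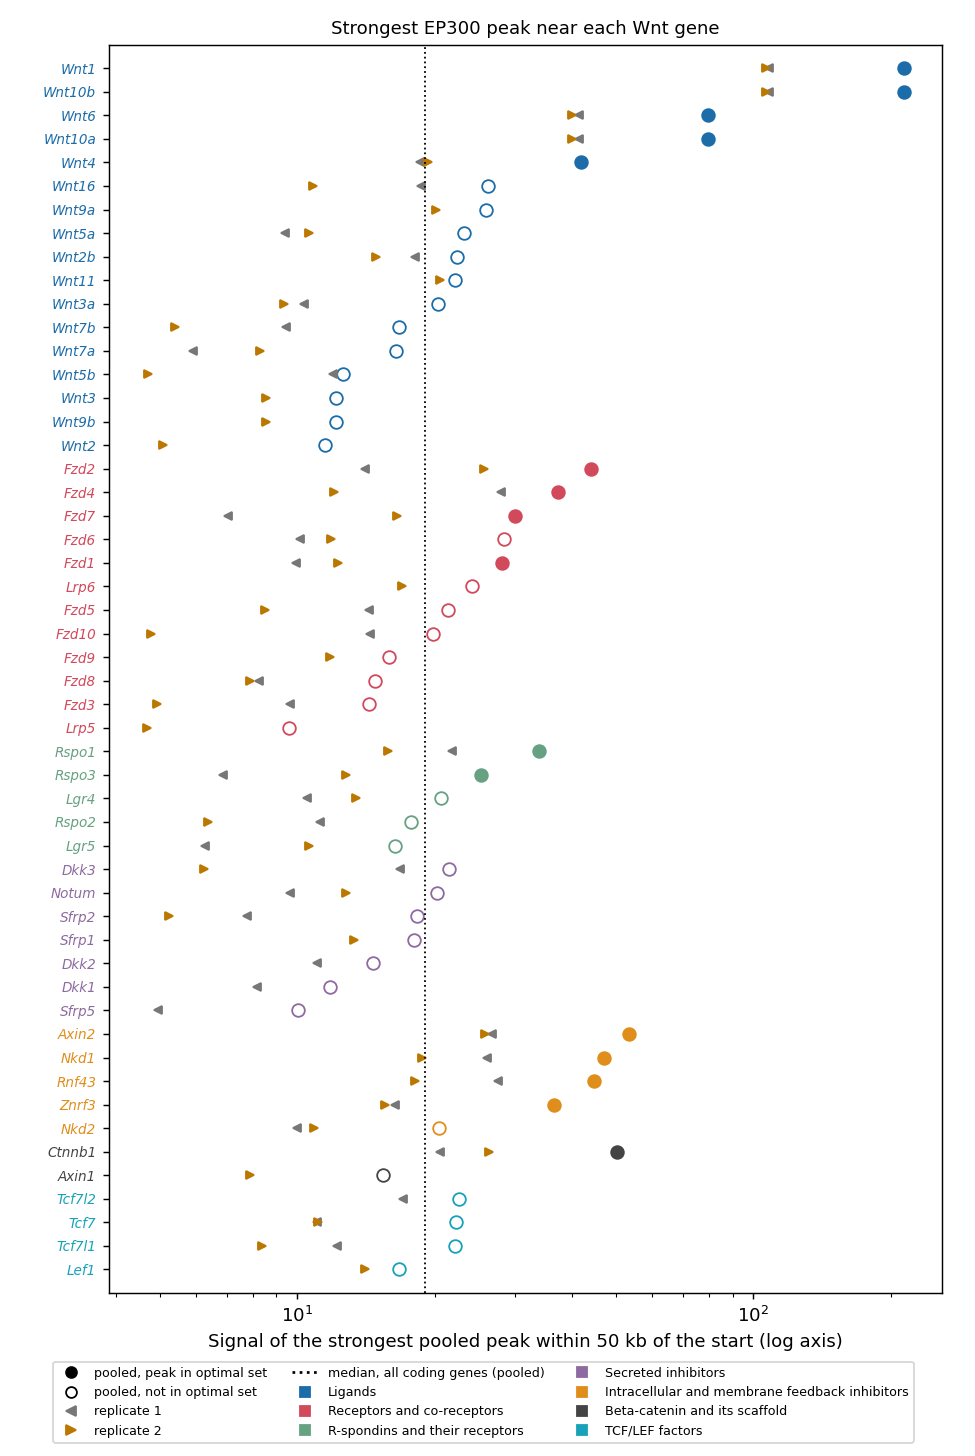
Signal of the strongest pooled peak within 50 kb of each gene start (circles, log axis), filled where that peak is in the optimal set, with the replicate signals in the same peak as triangles. Of the feedback inhibitors, 4 stand between 36.6 and 53.3 with filled circles, the secreted inhibitors are all open, and the dotted line is the median of all coding genes, 19.0.

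Of 50 further pathway genes, taken for their roles, 21 had a summit within 50 kb of the start (42.0%), beside 34.9% of all genes. In the gene body it was 16 (32.0%), beside 12.1%, and as the nearest start 18 (36.0%), beside 19.4%. Kremen1, a membrane receptor of Dkk proteins, was the nearest start to 4 summits, the strongest with 49.5 pooled, 21.2 in replicate 1 and 23.0 in replicate 2. Of 9 nuclear partners, 6 had a summit within 50 kb (66.7%). Among them, Bcl9l, an adaptor of beta-catenin, had 5 in that window, with up to 35.1, and Tle3, a co-repressor of TCF factors, had 4, with up to 49.5. Of the 7 targets listed, 3 had a summit within 50 kb (42.9%) and 4 were a nearest start (57.1%). Sp5 and Ascl2 had none by any link. The target Myc was the nearest start to 12 summits at any distance, and had 2 within 50 kb. Its strongest had 50.3 pooled, 24.2 in replicate 1 and 23.6 in replicate 2. Porcn and Wls, which make and release Wnts, had none, and of 11 further secreted or membrane regulators only Dkk4 and Kremen1 had one within 50 kb (18.2%). The Dkk4 peak was nearest to Vdac3.

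As a check of the tissue, summits within 50 kb were counted at markers, beside the 34.9% of all genes. They were present at 7 of 8 smooth muscle markers (87.5%, not Des) and 6 of 8 of squamous forestomach (75%, not Krt5 or Trp63). They were present at 4 of 8 of gastric epithelium (50%) and 2 of 8 of glandular stomach (25%). Gata4, Foxa2, Sox2 and Hnf4a, and Atp4a, Atp4b, Muc5ac, Muc6, Pgc and Tff1 had none in that window. Gastric mesenchyme had 4 of 7 (57.1%), endothelium 3 of 8 (37.5%), blood 2 of 8 and enteric neurons and glia 2 of 8 (25% each), so the last 3 were near or below all genes. Of the markers of other tissues, 1 of 8 for liver (12.5%), 2 of 8 for pancreas (25%) and 3 of 8 for intestine (37.5%) had one. The order depends on the link. As the nearest start, the counts were 5 of 8 for smooth muscle and 5 of 8 for gastric epithelium, Sox2 included. They were 4 of 8 for squamous forestomach and 0 of 8 for glandular stomach, beside 19.4% of all genes. Trp63 was among those 4 and also had a summit in the gene body. Krt13, Krt14 and Krt15 were linked by the window alone. The tissue is whole stomach, and which cells carry the sites at Wnt genes was not tested.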

How the data were processed

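The deposited files are 5 narrowPeak lists on mm10 (replicate 1, replicate 2, pooled, optimal and conservative sets). Peak strength is the deposited signal value of the authors' peak caller, whose scale differs from list to list. The deposited summit offset, another unit, is counted in bp from the peak start. Caller and aligner: not given in the sources used here. Read depth is unknown, so no counting interval is given. Of 7737 optimal peaks, 4 off the named chromosomes were left out. Genes came from GENCODE M21, with introns numbered in the transcript of longest coding sequence, and sequence from the matching RefSeq assembly GRCm38. A replicate signal is that of the strongest peak of that list with its summit inside the optimal peak. Computation used Python 3.11.15, numpy 2.4.6, pandas 2.3.3, pysam 0.24.0 and matplotlib 3.10.9, and the linking code was checked on simulated data. The members, the lists of pathway genes, markers and motifs and the naming rule were chosen with earlier results of these data known. The rule names every linked gene, the 6 unlinked genes of highest pooled rank, and up to 8 summits for sequence. Genes of lowest pooled signal, tRNA and lncRNA genes, the palindrome and the stretch of chromosome per gene were added after values were seen. With 1 group of 2 libraries, no test was made. Alternatives were other peak sets, windows, gene starts and motif forms.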

Additional observations from a re-analysis of the deposited data

How the results depend on the processing

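The number of Wnt genes with a summit within 50 kb (19) moved with the window. It was 6 at 10 kb (11.5%, beside 15.7% of all genes) and 9 at 20 kb (17.3%, beside 21.3%). At 100 kb it was 30 (57.7%, beside 49.1%). At 1 kb, a window added after seeing the data, it was 6 (11.5%, beside 10.1%). The share of Wnt genes was thus below that of all genes at 10 kb and 20 kb, and above it at 100 kb. With only summits over 1 kb from every coding transcript start, the count within 50 kb was 9 (17.3%), beside 17.4% of all genes. The gene body count (7) was 11 with 5 kb added upstream (21.2%, beside 17.7% of all genes). The nearest-start count (17) was 9 with genes of all types (17.3%, beside 13.6%). The motif count (6) was 2 within 50 bp and 10 within 250 bp. In the conservative, stronger, pooled and single-library sets the 3 gene counts stayed within 1.5 times, and the motif count was not run on them; from 1 library alone the counts were 22 in either library within 50 kb, 7 and 8 in the gene body and 19 and 21 for the nearest start. Over the 25 linked genes, 387 summit counts under the alternatives belong to links with at least 1 summit in the report; 198 stayed within 1.5 times and 189 moved, 174 lower and 15 higher. No paired analysis was possible because there is 1 group. Unknown depth limits what the absence of a summit means.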

Other observations

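The summit printed for Wnt10a holds the palindrome CTCGCGAG, which was noticed after the sequence was read. Of all 7733 optimal summits, 200 hold it within 100 bp (2.59%). It stood at 197 of 2952 promoter summits (6.67%) and at 1 of 3459 distal summits, which is the Wnt10a summit. The other member summit with it is the Arf3 promoter peak near Wnt1 and Wnt10b. The Wnt10a summit is distal by coding genes, where it ranks 32 of 3459 by signal, and lies 157 bp from the 5′ end of a RefSeq tRNA gene (chr1:74816747-74816817, minus strand). Of the 3459 distal summits, 25 lay within 500 bp of the 5′ end of a RefSeq tRNA gene (0.723%), with a median signal of 28.7, beside 29.6 for the other distal summits. None of the other 24 holds the palindrome.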
